A study of Mus musculus with 2 samples.

Results

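The genes described here encode working parts of the lysosome: membrane proteins, peptidases, glycosidases, sulfatases and lipid hydrolases, activator proteins, subunits of the proton pump, and the transcription factors TFEB and TFE3. They were chosen by name, as a list of 41 genes, and every probe set annotated to 1 of these genes alone was taken. This gave 91 probe sets for 40 genes, of 34945 probe sets that name a single gene and 18193 genes in all. Cd63, the remaining gene, had no such probe set and was not analysed here. Signals were read from oligonucleotide arrays hybridised with RNA of retinal pigment epithelium (RPE) from mice, the pigmented layer next to the photoreceptors, grown as primary cultures. The first culture received interferon gamma (IFNg), a cytokine of activated lymphocytes, for 24 h at 100 U/ml, and the second was left untreated. Both were grown for 14 days in medium with 20% serum, were kept in serum-free medium overnight before RNA extraction and were described as 95% cytokeratin-positive. The sources used here do not give the strain or age of the mice.

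Lysosomes are acidic organelles that degrade proteins, glycans and lipids. A proton pump, the V-ATPase, acidifies them: its V1 sector hydrolyses ATP on the cytosolic side, and its V0 sector carries protons through the membrane. TFEB and TFE3 are transcription factors that bind the CLEAR element, a palindrome built around an E-box, in promoters of many lysosomal genes. In the eye, RPE cells use lysosomes to digest the outer segment tips that photoreceptors shed each day, and in antigen-presenting cells lysosomal peptidases trim proteins for MHC class II molecules.

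Each group had 1 array, so there was no test, no error between replicates and no p-value, and higher or lower describes these 2 arrays. The ratios given are log2 of the IFNg signal over the untreated signal after dimmer signals were raised to a floor of 20.4, the pooled median. The only spread available was between probe sets for a common gene on the same 2 arrays, where the SD of the log2 ratio was 0.44 over 4419 genes. It holds no variation between cultures or hybridisations. The IFNg response genes Irf1, Gbp2, Cxcl9, Cd74, Psmb9 and Cd274 were all at least 2-fold higher on the array labelled IFNg, with a median log2 ratio of 5.31. Epithelial and RPE genes such as Otx2 (signals of 388.5 with IFNg and 410.9 untreated) and Krt18 (2446 with IFNg and 1390 untreated) were above the floor on both arrays, whereas Rpe65, Best1 and Dct, which mature pigmented RPE expresses, were at the floor on both. Other pigment and RPE genes were above the floor on both arrays, among them Tyr (605.7 with IFNg and 986.1 untreated) and Rdh5 (202.7 with IFNg and 468.9 untreated). The fibroblast collagen gene Col1a1 was bright on both arrays, at 9775 with IFNg and 11026 untreated. In such bulk RNA, fewer cells of a type and less RNA per cell cannot be told apart.

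Lysosomal transcripts differed little between the cultures, and most were slightly lower with IFNg. All 40 genes were above the floor on both arrays. Lamp2 alone was at least 2-fold higher (2.5% of the 40, against 8.82% of all 12743 genes that passed the floor on at least 1 array). Of those 12743 genes, 10441 were above the floor on both arrays, so shares over all genes are not matched to the members on signal. Tfeb, Galc and Atp6v0a1 were at least 2-fold lower (7.5%, against 4.48% of all genes), and the other 36 lay within 2-fold. The ratio was below 0 for 31 of 40 members (77.5%) and for 57.5% of all genes. The median log2 ratio was -0.31 for the members and -0.12 for all genes. This median depends on the processing. It was -0.18 after a loess curve on signal strength, where all genes had -0.07. Without probe sets whose IDs mark shared sequence, within a gene or beyond it, 31 members remained. Their median was then -0.16, where all genes had -0.10. At a threshold of 1.5-fold, 4 members were higher (10%, against 17.9% of all genes) and 9 were lower (22.5%, against 18.7%).

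**Figure D1:**
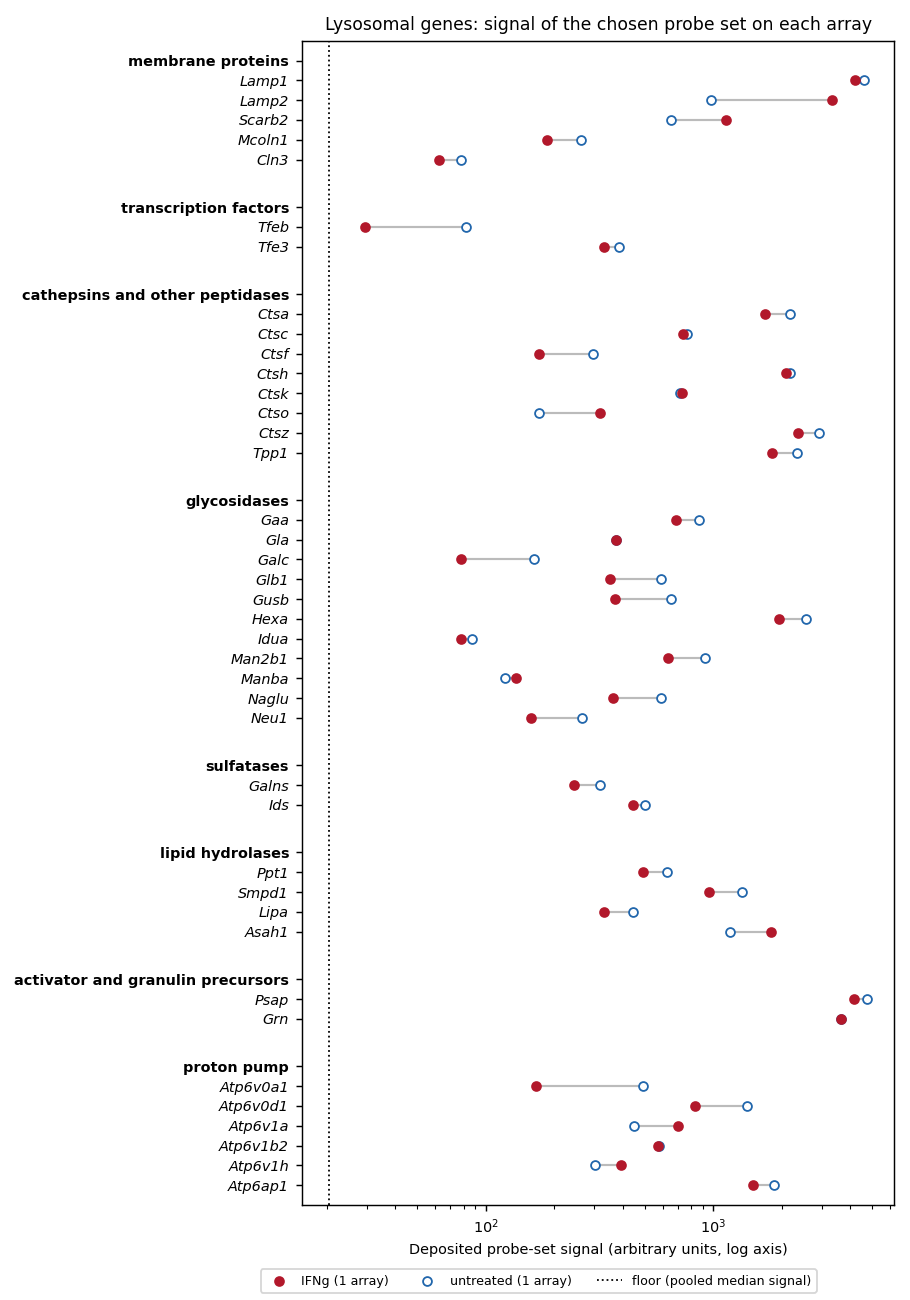
Deposited signal (arbitrary units, log axis) of the chosen probe set of each of the 40 lysosomal genes, filled red points for the IFNg array and open blue points for the untreated array, 1 array each, with the floor of 20.4 as a dotted line. Lamp2 has the widest gap with IFNg on the right, and Tfeb, Galc and Atp6v0a1 have the widest gaps with IFNg on the left.

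Among the membrane proteins, Lamp2 and Scarb2 had higher signals with IFNg and the others did not. Lamp2 is a heavily glycosylated protein of the lysosomal membrane, of which one splice form is the receptor for chaperone-mediated autophagy. Its brightest probe set had a signal of 3313.3 on the IFNg array and 974.2 on the untreated array, a 3.40-fold higher value. The next had 2879.7 with IFNg and 1078.1 untreated (2.67-fold). The third probe set had 1724.6 with IFNg and 1039.4 untreated, and the dimmest had 470.4 with IFNg and 348.6 untreated. All 4 therefore lay above 0, with log2 ratios of 1.77, 1.42, 0.73 and 0.43, but they ranged over 1.33 log2 units, and the 2 dimmer ones lay within 2-fold. Lamp2 transcripts have alternative 3′ ends, and which of these each probe set matches was not examined. Lamp1, its close relative, had 4198.2 with IFNg and 4601.2 untreated, a log2 ratio of -0.13. Every Lamp2 probe set thus had a higher ratio than the single one of Lamp1.

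Scarb2, an abundant glycoprotein of the lysosomal membrane also known as LIMP-2, had a signal of 1141.9 with IFNg and 654.0 untreated (1.75-fold higher). Its second probe set, of like brightness, had 712.0 with IFNg and 778.9 untreated, so the probe sets of Scarb2 disagree in sign. Mcoln1, a calcium channel of the lysosomal membrane whose opening activates TFEB through calcineurin, had 185.3 with IFNg and 262.6 untreated. A second Mcoln1 probe set also lay below 0, at -0.69, and a dim further one, under the floor on the untreated array, was at 0.25 or more. Cln3, mutated in juvenile neuronal ceroid lipofuscinosis, had 62.6 with IFNg and 78.2 untreated (-0.32).

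The upstream sequences of the genes whose probe sets gave the largest differences in each direction, Lamp2 and Atp6v0a1, are shown to place them beside the E-box promoters given further on. They are the 200 bases before the annotated start in RefSeq on GRCm38.p6, Lamp2 at chrX:38456461-38456660 on the minus strand and Atp6v0a1 at chr11:101010198-101010397 on the plus strand, 5′ to 3′ along the gene.
Lamp2: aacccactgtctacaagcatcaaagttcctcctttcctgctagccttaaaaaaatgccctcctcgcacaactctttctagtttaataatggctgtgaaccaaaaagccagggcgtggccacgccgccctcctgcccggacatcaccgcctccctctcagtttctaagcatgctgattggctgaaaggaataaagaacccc
Atp6v0a1: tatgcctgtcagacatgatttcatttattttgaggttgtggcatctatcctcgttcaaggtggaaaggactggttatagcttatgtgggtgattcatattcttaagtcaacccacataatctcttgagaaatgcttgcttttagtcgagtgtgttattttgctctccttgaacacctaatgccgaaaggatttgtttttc

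The transcription factor genes were both lower with IFNg, by unlike amounts. Tfeb had a signal of 29.5 on the IFNg array and 81.7 on the untreated array, 2.77-fold lower (log2 ratio -1.47). It has a single probe set, dim on both arrays. Both of its signals lie under the pooled 75th percentile of 86.6, so a floor placed there leaves Tfeb unmeasured. Tfe3, which shares DNA targets with Tfeb, had 329.5 with IFNg and 386.5 untreated (-0.23), also by 1 probe set. Mitf, a relative of both and a regulator of pigment genes, had 99.6 with IFNg and 66.0 untreated (0.59), and Tfec was at the floor on both arrays.

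The cathepsins and other peptidases lay within 2-fold in all 8 genes, where 8.82% of all genes were 2-fold higher and 4.48% lower. Of the 8, 6 were below 0 (75%, against 57.5% of all genes), with a median log2 ratio of -0.18 (against -0.12). Ctso, a cysteine cathepsin, had the highest ratio, with signals of 316.4 on the IFNg array and 171.9 on the untreated array (1.84-fold higher), by its only probe set above the floor. Ctsf, another cysteine cathepsin, had the lowest, with 172.0 with IFNg and 296.5 untreated (1.72-fold lower). The remaining 6 peptidases were closer to equal. Ctsh, an aminopeptidase, had 2098.3 with IFNg and 2171.8 untreated. Ctsc, which activates granule serine proteases in leukocytes, had 739.4 with IFNg and 768.4 untreated, and Ctsk, the collagen-degrading cathepsin of osteoclasts, had 732.2 with IFNg and 715.8 untreated. These 3 differed by a log2 ratio of 0.06 or less in size. The carboxypeptidase Ctsz had 2368.9 with IFNg and 2918.3 untreated, and its 3 probe sets agreed closely, from -0.32 to -0.29. Ctsa, which shields beta-galactosidase and neuraminidase in a complex, had 1685.9 with IFNg and 2183.4 untreated (-0.37). Tpp1, a tripeptidyl peptidase lacking in late infantile neuronal ceroid lipofuscinosis, had 1813.7 with IFNg and 2345.0 untreated (-0.37), with its second probe set at -0.29.

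The glycosidases, which remove sugars from glycoproteins, glycolipids and glycosaminoglycans, had 9 of 11 members below 0 (81.8%, against 57.5% of all genes), with a median log2 ratio of -0.53. Galc, which cleaves galactosylceramide, had a signal of 77.5 with IFNg and 162.4 untreated (2.10-fold lower). A second Galc probe set, close to the floor, had 28.1 with IFNg and 27.2 untreated, and Galc lay within 2-fold when probe sets were averaged (-0.34) and when the floor was raised to the pooled 75th percentile (-0.91). Gusb, the beta-glucuronidase, had 368.2 with IFNg and 649.3 untreated (1.76-fold lower). Its dimmer probe set had 162.4 with IFNg and 339.4 untreated (-1.06), so both Gusb probe sets were lower and 1 passed 2-fold. Glb1, the beta-galactosidase that degrades GM1 ganglioside, had 350.2 with IFNg and 588.8 untreated (1.68-fold lower). Neu1, the sialidase that forms a complex with Ctsa and Glb1, had 158.0 with IFNg and 264.7 untreated (1.68-fold lower), while a dim Neu1 probe set under the floor untreated lay at 0.46 or more. Naglu, which degrades heparan sulfate, had 364.1 with IFNg and 587.3 untreated (1.61-fold lower). These 5 of 11 were the glycosidases at least 1.5-fold lower (45.5%, against 18.7% of all genes), and none was 1.5-fold higher (against 17.9%).

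The other glycosidases lay closer to equal. Man2b1, an alpha-mannosidase, had 635.0 with IFNg and 919.6 untreated (-0.53). Hexa, the alpha subunit of the hexosaminidase lacking in Tay-Sachs disease, had 1942.4 with IFNg and 2550.5 untreated (-0.39). Gaa, the acid alpha-glucosidase that breaks down glycogen, had 687.7 with IFNg and 869.2 untreated, and its probe sets lay at -0.34 and -0.38. Those 3 were below the median of all genes. Gla, the alpha-galactosidase lacking in Fabry disease, had 375.6 with IFNg and 373.0 untreated. Manba, the beta-mannosidase, had 136.1 with IFNg and 122.0 untreated (0.16). Idua, which acts on heparan and dermatan sulfate, had 77.7 with IFNg and 87.0 untreated, and its dimmer probe set went the other way (0.71). The sulfatases followed the same range: Galns, which acts on keratan sulfate, had 243.5 with IFNg and 316.6 untreated (-0.38). Ids, which acts on heparan and dermatan sulfate, had 444.8 with IFNg and 499.6 untreated (-0.17), and its 4 probe sets above the floor on both arrays ran from -0.43 to 0.14.

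Of the 4 lipid hydrolases, Asah1 differed in direction from the rest. Asah1, the acid ceramidase, had a signal of 1786.4 with IFNg and 1190.9 untreated, a log2 ratio of 0.58, by 1 probe set. Smpd1, the acid sphingomyelinase that produces ceramide, had 959.7 with IFNg and 1337.0 untreated (-0.48), with a dimmer probe set at 0.20. Smpd1, which makes ceramide, and Asah1, which degrades it, thus had ratios of opposite sign by their brightest probe sets, both within 2-fold. Lipa, which hydrolyses cholesteryl esters, had 331.7 with IFNg and 446.0 untreated (-0.43), and its other probe sets were at -0.08 and -0.09. Ppt1, which removes palmitate from proteins, had 493.2 with IFNg and 627.1 untreated (-0.35), and a second bright probe set had -0.63. Psap, the precursor of the saposins that present lipids to these enzymes, had 4140.6 with IFNg and 4763.3 untreated (-0.20). Grn, the progranulin precursor, had 3633.1 with IFNg and 3645.2 untreated, and its 3 probe sets ran from -0.01 to 0.34.

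**Figure D2:**
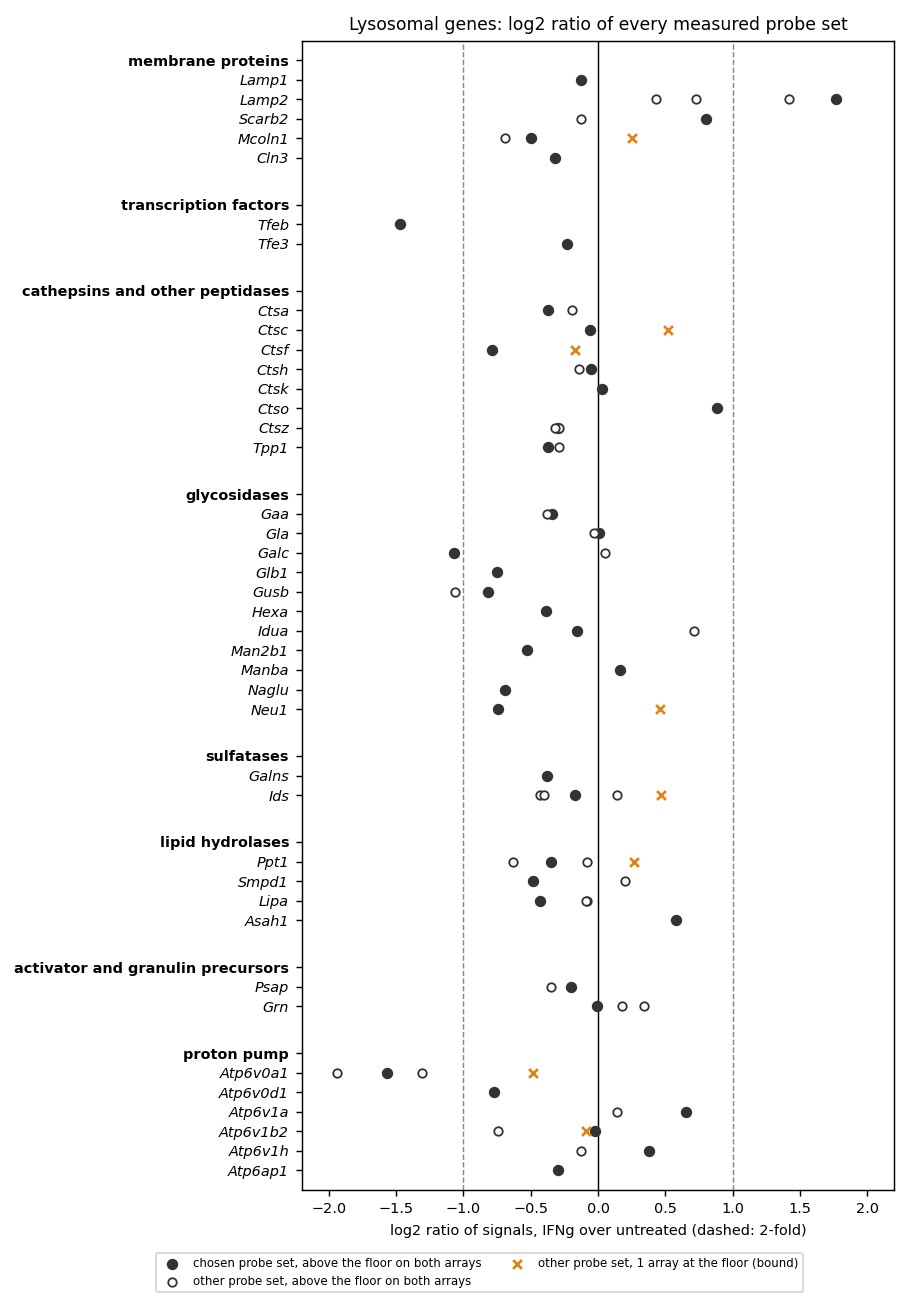
Log2 ratio of signals, IFNg over untreated, for every lysosomal probe set measured on at least 1 array: filled points are the probe sets chosen for the gene, open points other probe sets above the floor on both arrays, and crosses those with 1 array at the floor, which are bounds. All 4 Lamp2 points lie right of 0 and all 4 Atp6v0a1 points left of it, whereas Scarb2, Galc, Idua and Smpd1, among others, have points on both sides.

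Counted by probe set, 79 of the 91 passed the floor on at least 1 array and 12 did not. Of the 79, 2 were at least 2-fold higher (2.53%, against 9.36% of 22273 probe sets of all genes) and 6 at least 2-fold lower (7.59%, against 4.69%). The ratio was below 0 for 55 of the 79 (69.6%), against 54.2% of probe sets of all genes. The 2 higher ones belonged to Lamp2, and the 6 lower ones to Atp6v0a1, which had 3, and to Tfeb, Galc and Gusb. Of the 22 genes with several probe sets above the floor on both arrays, 14 had all of them on 1 side of 0 and 8 had them on both sides. The SD of the log2 ratio between probe sets of a member was 0.36, so ratios of -0.3 for single genes lie within that spread. A ratio beyond it need not exceed the variation between cultures or hybridisations, which is unknown.

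In the proton pump, Atp6v0a1 was lower by each of its probe sets. It encodes an isoform of the large membrane subunit of the V0 sector, which helps form the path of the protons. Its chosen probe set had a signal of 165.5 on the IFNg array and 492.7 on the untreated array, 2.98-fold lower (log2 ratio -1.57). A second had 57.0 with IFNg and 218.4 untreated (-1.94), and another had 62.6 with IFNg and 155.4 untreated (-1.31). The last was dim, at 18.7 with IFNg, under the floor, and 28.4 untreated. Atp6v0d1, a V0 subunit that links the sectors, had 830.6 with IFNg and 1412.9 untreated (1.70-fold lower). Atp6v1a, the catalytic V1 subunit, had 700.3 with IFNg and 447.2 untreated (1.57-fold higher), and its second probe set was at 0.14. Atp6v1h, a regulatory V1 subunit, had 391.5 with IFNg and 300.8 untreated (0.38), with a dim probe set at -0.13. Atp6v1b2, the non-catalytic ATP-binding V1 subunit, had 569.3 with IFNg and 576.1 untreated (-0.02), with a dimmer probe set at -0.74. The accessory subunit Atp6ap1 had 1501.5 with IFNg and 1844.3 untreated (-0.30).

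None of the remaining subunits was called past 2-fold, but some were measured only as bounds. Of all genes, 8.82% were 2-fold higher and 4.48% lower, and with so few subunits a list without any lies near those shares. Of 17 further pump genes with a probe set, 15 were above the floor, with a median log2 ratio of -0.22. Those above the floor on both arrays ran from Atp6v0b (-0.78; 577.4 with IFNg and 994.7 untreated) to the accessory subunit Atp6ap2 (0.55; 2767 with IFNg and 1889 untreated). Atp6v0d2 (1.7 with IFNg and 27.4 untreated), Atp6v1e2 (9.4 with IFNg and 32.2 untreated) and Atp6v1c2 (4.3 with IFNg and 21.0 untreated) were under the floor with IFNg, so how far they were lower is not known. Grouped by sector, after the values were seen and with no test, 7 of 8 V0 genes were below 0 (87.5%) with a median of -0.49, and 7 of 11 V1 genes were below 0 (63.6%) with a median of -0.04. Over all genes 57.5% were below 0 and the median was -0.12, so the V1 share lay near that of all genes. Tcirg1, a V0 isoform of the same subunit family as Atp6v0a1 that is prominent in osteoclasts, was the V0 gene above 0 (0.11).

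**Figure D3:**
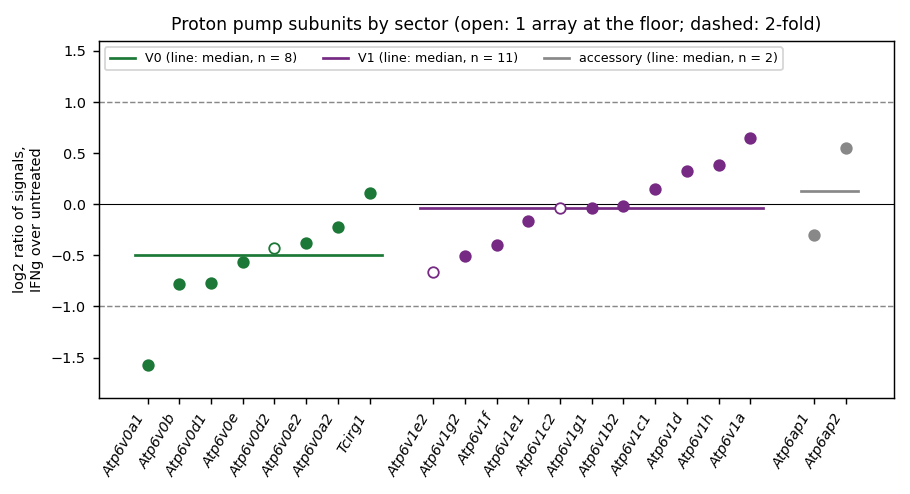
Log2 ratio of signals, IFNg over untreated, for proton pump genes measured on at least 1 array, by sector, with the sector's median as a line and open points where 1 array was at the floor. V0 genes run from -1.57 (Atp6v0a1) to 0.11 (Tcirg1), and V1 genes from -0.66 (Atp6v1e2, a bound) to 0.65 (Atp6v1a).

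Promoters were searched for the CLEAR element and for the interferon motifs GAS and ISRE, to describe the members' sequences. Since CLEAR is known from promoters of lysosomal genes, its share among the members is not independent of their choice. RefSeq promoters of 300 bases (250 before and 50 after the annotated start, GRCm38.p6) were held for 36 of the 41 genes. The E-box core CACGTG, searched on both strands as were all motifs, was found in 11 of 36 genes (30.6%), against 8.09% of 27025 genes and 7.15% of 32851 promoters. The extended core TCACGTGA, added after the first matches were seen, was found in 6 of 36 (16.7%, against 1.12% of genes and 0.974% of promoters), and each such match contains an E-box core. The full CLEAR palindrome, in which G precedes and C follows that core, was found in Cln3 alone (2.78%, against 0.37% of genes and 0.326% of promoters). These shares were not matched on base composition: member promoters had 13.3 CpG dinucleotides on average, all promoters 12.4 and those with an E-box core 17.9.

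The stretches that hold the extended core are shown 5′ to 3′ along the gene with the core in capitals, and the E-box cores in capitals for Lamp1, which has 4 of them within its last 61 bases before the start. On GRCm38.p6 they are Cln3 at chr7:126583333-126583376 (minus strand), Ctsa at chr2:164833742-164833792 (plus), Gla at chrX:134601175-134601251 (minus), Mcoln1 at chr8:3500455-3500498 (plus), Atp6v0d1 at chr8:105566045-105566086 (minus), Atp6v1a at chr16:44139366-44139409 (minus) and Lamp1 at chr8:13159082-13159169 (plus).
Cln3: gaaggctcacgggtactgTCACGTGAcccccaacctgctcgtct
Ctsa: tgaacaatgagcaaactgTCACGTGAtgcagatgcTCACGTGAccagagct
Gla: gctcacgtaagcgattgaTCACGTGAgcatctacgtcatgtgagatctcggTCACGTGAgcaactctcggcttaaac
Mcoln1: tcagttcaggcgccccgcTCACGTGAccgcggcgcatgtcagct
Atp6v0d1: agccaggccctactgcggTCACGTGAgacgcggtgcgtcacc
Atp6v1a: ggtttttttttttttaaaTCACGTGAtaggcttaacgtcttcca
Lamp1: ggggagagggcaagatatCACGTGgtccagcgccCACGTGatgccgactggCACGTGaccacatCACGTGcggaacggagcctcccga

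Ratios of genes with and without an E-box core overlapped. The median log2 ratio was -0.37 for the 11 measured genes with the core and -0.30 for the 24 without it. Genes with the core included Atp6v1a (0.65) and Atp6v0d1 (-0.77), which lie near opposite ends of the list. Lamp2, Tfeb, Galc and Atp6v0a1, the 4 genes past 2-fold, held none of the motifs searched in these windows, which says only that these letters do not occur there. GAS (TTCNNNGAA) was found in Ctsc and Cln3 (5.56%, against 9.55% of genes and 8.3% of promoters). The ISRE core, a pair of GAAA runs with 2 bases of any kind between them, was found in Ctso and Lamp1 (5.56%, against 3.99% of genes and 3.44% of promoters). A match to a motif is a description of the sequence and not a binding site.

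**Figure D4:**
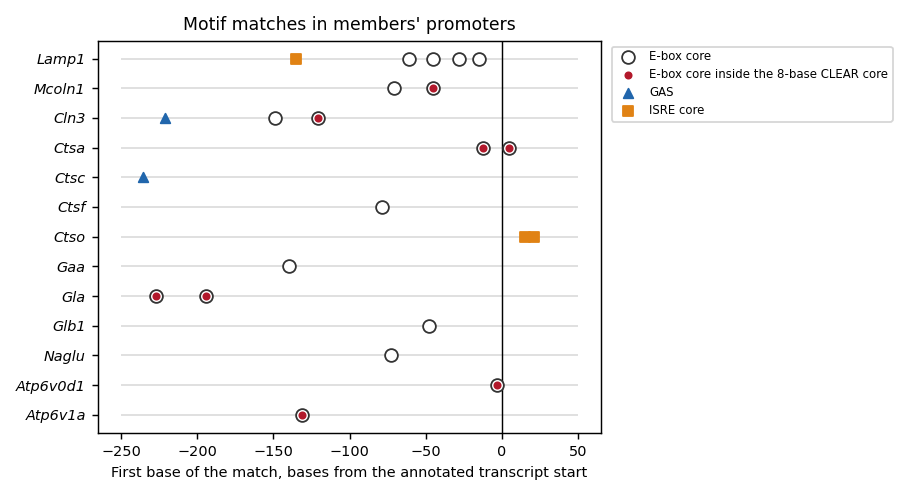
First base of each motif match in the promoters of the 13 members that hold one, in bases from the annotated transcript start (0), with open circles for the E-box core, a red centre where it lies inside the extended CLEAR core, triangles for GAS and squares for the ISRE core. Lamp1 carries 4 E-box cores between 61 and 15 bases before the start, and Ctso carries its ISRE matches after the start.

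Further lysosomal genes, listed for this comparison, were also mostly below 0. Of 101 such genes, 93 had a probe set and 89 were above the floor; 2 were at least 2-fold higher (2.25%, against 8.82% of all genes) and 1 was 2-fold lower (1.12%, against 4.48%). The ratio was below 0 for 69 (77.5%, against 57.5%), with a median log2 ratio of -0.28 (against -0.12). The share 2-fold lower was thus under that of all genes and that of the members (7.5%) was over it. These shares rest on 1 gene and on 3 genes, too few to set the lists apart. Among 25 other hydrolases above the floor, 22 were below 0 and the median was -0.39. The aspartic protease Ctse had 131.2 with IFNg and 307.3 untreated, 2.34-fold lower, by 1 probe set. Among 20 other membrane proteins and transporters the median was -0.25. Tmem106b, a lysosomal membrane protein linked to frontotemporal dementia together with Grn, had 507.7 with IFNg and 172.1 untreated (2.95-fold higher), but its 3 probe sets above the floor ran from -0.39 to 1.56.

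Genes that sort lysosomal enzymes, 12 in number, lay within 2-fold, with a median of -0.26 (against -0.12 for all genes). Of all genes, 8.82% were 2-fold higher and 4.48% lower. They ran from the sorting receptor Sort1 (-0.76; 274.8 with IFNg and 465.6 untreated, with a further probe set at -1.18) to the mannose 6-phosphate receptor M6pr (0.31; 970.6 with IFNg and 784.7 untreated). In the list of TFEB relatives and the mTORC1 proteins that hold TFEB in the cytosol, 17 genes had a median of -0.18. Fnip1, a partner of folliculin in that control, was the gene past 2-fold, with 117.8 with IFNg and 32.3 untreated (3.65-fold higher) and a second probe set at 2.38.

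**Figure D5:**
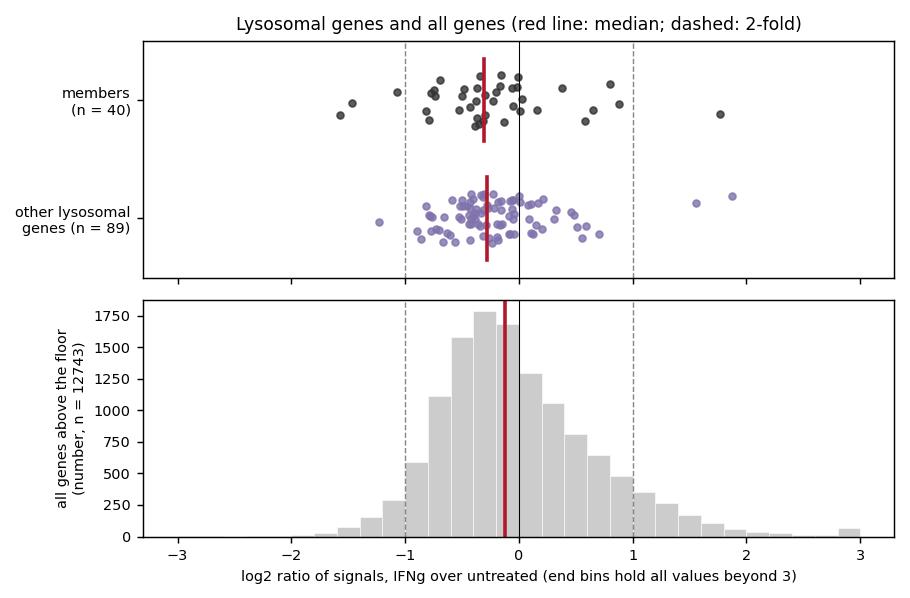
Log2 ratio of signals, IFNg over untreated, for the 40 members and 89 other lysosomal genes (1 point a gene, spread vertically at random) above a histogram of all 12743 genes above the floor, with medians as red lines. The medians are -0.31 for the members, -0.28 for the other lysosomal genes and -0.12 for all genes, and the long right tail of all genes has few lysosomal counterparts.

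Macrophages are rich in lysosomes, so their markers were read beside these values. Of 12 macrophage markers, 10 passed the floor on at least 1 array, with a median log2 ratio of -0.56. Of these 10, 9 had ratios below 0 (90%, against 57.5% of all genes). At least 2-fold lower were 30% (against 4.48%), and 10% were higher (against 8.82%). The summed signal of all 12 was 909.7 with IFNg and 1372 untreated, of which Lyz2 alone gave 486.5 and 660.8. Laptm5 was at least 2-fold lower, with 8.7 with IFNg and 40.9 untreated, as were Fcer1g (10.6 with IFNg and 46.0 untreated) and Csf1r (77.5 with IFNg and 202.8 untreated), whereas Cybb was 2.33-fold higher, and Itgam and Aif1 were at the floor on both arrays. Other probe sets differed in size: those of Laptm5 above the floor on both arrays lay at -0.55 and -0.19, and those of Csf1r ran from -1.39 to -0.28. The leukocyte gene Ptprc had 7.0 with IFNg and 20.8 untreated, near the floor. In the RPE and melanin list, 4 of 10 genes above the floor were at least 2-fold lower (40%, against 4.48% of all genes). These were Ttr, Tyrp1, Rdh5 and Rlbp1, each with 1 probe set above the floor on both arrays. With IFNg, Ttr (29.4, against 89.4 untreated), Tyrp1 (21.7, against 53.1) and Rlbp1 (35.1, against 73.2) were close to the floor. The ratios of these genes are thus uncertain in size. Rdh5 was brighter, at 202.7 with IFNg and 468.9 untreated. The median of the list was -0.41, and 3 of the 10 genes were above 0, among them Krt18 (0.81) and Mitf (0.59). The fibroblast list of 9 genes had none past 2-fold and a median of -0.17. The part of these cell types in the lysosomal values was not tested.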

How the data were processed

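RNA from 2 cultures was amplified, labelled with biotin and hybridised, 1 array each, per the labels' protocols. Linear signal intensity was deposited for 45101 probe sets. How the authors summarised probes into signals, and which were called detected, is not given in the sources used here. After 64 control probe sets were left out, arrays were scaled to a common mean trimmed by 2% at each end, lower signals were raised to the pooled median (20.4), and log2 values were computed. Of the probe sets, 50.4% on the IFNg array and 49.5% on the untreated array exceeded this floor. The number of arrays limits the precision.

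Gene names came from the platform annotation, which can be old: 34945 probe sets name 1 gene, 932 several and 9160 none. A gene took its brightest probe set by mean log2 signal. For 13 members its ID has a letter suffix (_a, _s or _x), taken here as the mark of shared sequence. Sequence shared only between transcripts of 1 gene (_a) was not kept apart from wider sharing. All members were named. Other lysosomal genes were named when past 2-fold, or as the highest and lowest of a list, with Mitf, Tfec and Tcirg1 added as relatives, and those of the closing section, after their values were seen. Markers were named when past 2-fold, at the floor, or as examples. Cd68 and Mitf stand in more than 1 list. Members and lists were chosen with earlier results of these data known. Promoter sequences are RefSeq's on GRCm38.p6; no build is named for the signals. The steps were tested on simulated data, in which the differences set were larger than 2-fold and in genes well above the floor. That test does not cover differences near 2-fold, dim genes or variation between cultures. Versions were Python 3.11.15 with matplotlib 3.10.9, statsmodels 0.14.6, pandas 2.3.3, numpy 2.4.6 and scipy 1.17.1.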

Additional observations from a re-analysis of the deposited data

How the results depend on the processing

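Lamp2 was the member at least 2-fold higher, and Atp6v0a1 was 2-fold lower, under each of 9 alternatives in scaling, floor and probe-set choice. Raising the floor to the pooled 75th percentile left Tfeb unmeasured and Galc within 2-fold (-0.91), so that 1 gene was 2-fold lower in place of 3. Galc also lay within 2-fold with a pseudocount of 16 (-0.93) and with probe sets averaged (-0.34). With averaging Lamp2 had a log2 ratio of 1.09. At 1.5-fold, 4 genes were higher (10%, against 17.9% of all genes) and 9 lower (22.5%, against 18.7%), with Asah1 just short of the threshold. The members' median of -0.31 became -0.18 with loess, -0.19 with averaging and -0.16 without shared-sequence probe sets (31 genes), staying below that of all genes each time. Member probe sets at least 2-fold higher numbered 2. They numbered 7 with the floor at the 25th percentile, 4 with the pseudocount and 1 without shared-sequence probe sets. Those 2-fold lower numbered 6, against 10 with the floor at the 25th percentile and 3 at the 75th. At a threshold of 1.5-fold, 7 probe sets were higher and 15 lower. Shares over all probe sets were not computed for these settings, but counts of all genes moved too. With the floor at the 25th percentile, 2258 of 16565 genes were 2-fold higher and 2059 lower, against 1124 and 571 of 12743. At the 75th percentile they were 574 and 163 of 7765. Of 349 single-gene values under these alternatives, 344 stayed within 0.44, the SD between probe sets, of the main value. This count is no strong check, because omitting the rescaling or changing the floor left most values unchanged. Averaging moved Lamp2, Scarb2 (0.80 to 0.34), Galc and Neu1 (-0.74 to -0.09) further. Leaving out shared-sequence probe sets took Mcoln1 from -0.50 to 0.25. No 2-fold difference reversed, which only the genes past 2-fold in the main setting could do. No paired analysis was possible because each group has 1 array. Background in dim signals is unknown, so ratios near the floor, such as that of Tfeb, are uncertain in size.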

Other observations

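The Ragulator complex, which anchors the mTORC1 machinery to the lysosomal membrane, was looked at after its values were seen. All 5 Lamtor genes were below 0 by their chosen probe sets (57.5% of all genes were), although a second one of Lamtor5 was at 0.30. Their median log2 ratio was -0.43 and none was past 2-fold, where 8.82% of all genes were 2-fold higher and 4.48% lower. The list they were picked from had a median of -0.18, and all genes had -0.12. Lamtor4 had a signal of 339.3 with IFNg and 598.5 untreated (-0.82), and Lamtor1 had 2282 with IFNg and 3277 untreated (-0.52). Rptor, the mTORC1 scaffold, had 99.6 with IFNg and 185.7 untreated (-0.90), and Tsc2, an inhibitor of the pathway, had 155.5 with IFNg and 264.7 untreated (-0.77). Other genes of the same list went the other way, among them Tsc1, the partner of Tsc2, with 92.1 with IFNg and 64.5 untreated (0.51), Fnip2 (0.48) and Fnip1 (1.87). With 1 array a group these values carry no test.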
